A study of Aspergillus nidulans with 12 samples.

Results

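The strain by cadmium interaction compares how 2 strains of the filamentous fungus Aspergillus nidulans responded to CdCl2. For each gene it is the log2 change of the *ΔatfA* mutant TNJ92 (CdCl2-treated over untreated) minus the log2 change of the reference strain THS30 (CdCl2-treated over untreated). All 12 libraries of the series entered it, 3 biological replicates in each of the 4 groups, and 9070 of the 10988 genes in the table passed the filter on low counts and were tested. A gene is called when its Benjamini-Hochberg adjusted p is under 0.05 in the quasi-likelihood test of edgeR. TNJ92 carries *pyrG89*, *AfupyrG*+, *pyroA4* and *ΔatfA::pyroA*, so that a *pyroA* cassette stands in place of *atfA*, and THS30 carries *pyrG89*, *AfupyrG*+, *pyroA4* and *pyroA*+. Both strains thus share the *pyrG89* and *pyroA4* alleles, the AfupyrG+ marker and a working *pyroA* gene, and each is a single strain. Submerged cultures grown for 16 h at 37 °C received 0.2 mM CdCl2 or nothing, and mycelium was taken 0.5 h later. RNA abundance was measured in whole mycelium, where a lower amount of RNA per cell and fewer cells of a kind cannot be told apart.

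AtfA is a bZIP transcription factor of the ATF/CREB family and acts with the stress MAP kinase SakA, the fungal counterpart of the HOG and p38 kinases. Histidine kinases and response regulators of the phosphorelay pass stress signals on to this kinase module. Cadmium ions bind thiol groups, and fungi handle them through sulfur metabolism, glutathione, efflux pumps and vacuolar storage. An interaction above 0 means that the response of TNJ92 lay above that of THS30, and an interaction below 0 means that it lay below, whichever way each strain moved.

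Library totals ran from 8721119 to 13641031 counts, and the 10 most abundant genes took 6.29% to 7.46% of them. Principal components were taken from the most variable genes only, and the shares of variance hold for those genes. The first component (79.6% of the variance) separated the strains and the second (15.3%) the treatments. On the second component THS30 CdCl2-treated replicate 3 scored 7.15, against 14.7 and 13.1 for the other replicates of its group, so it stood nearer to the untreated cultures than they did. No pair of libraries looked like a repeat deposit, since the highest correlation between log counts was 0.993. The targeted gene *atfA* (AN2911) had 17.3, 19.2 and 25.4 CPM in CdCl2-treated and 26.7, 27.4 and 26.1 CPM in untreated TNJ92 cultures, against 242, 232 and 242 CPM in CdCl2-treated and 357, 331 and 301 CPM in untreated THS30 cultures. Every TNJ92 library was below every THS30 library, as the labels have it, although TNJ92 retained between 233 and 347 counts. The interaction of *atfA* itself was 0.09 ± 0.16 (adjusted p = 0.722) and was not called.

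Of the 9070 genes tested, 2422 (26.7%) had a called interaction, 1193 (13.2%) above 0 and 1229 (13.6%) below 0. Among them, 149 of 185 ribosome biogenesis genes were called below 0 and 11 of 20 phosphorelay genes above 0, as was *sakA*. The median size of the interaction was 0.74 among called genes and 0.32 among all genes on the log2 scale, and the median over all genes was 0.01. A size of at least 1, or a 2-fold difference between the responses, was reached by 711 called genes (7.84% of those tested), 456 above and 255 below 0. Without THS30 CdCl2-treated replicate 3, 2390 genes were called, 1341 above and 1049 below 0.

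The strains' own responses divide these genes into classes. In TNJ92 the response was called for 5122 genes (56.5%), with 28.3% of the genes tested that rose and 28.2% that fell. In THS30 it was called for 3985 genes (43.9%), with 22.5% that rose and 21.5% that fell. Among the 1193 genes above 0, 556 rose in TNJ92 without a call in THS30, 286 rose in both strains, 177 fell in THS30 without a call in TNJ92, and 111 rose in TNJ92 and fell in THS30. A further 40 fell in both strains, and 23 had no called response in either. Among the 1229 genes below 0, 493 fell in TNJ92 without a call in THS30, 283 fell in both, 229 rose in THS30 without a call in TNJ92, and 166 fell in TNJ92 and rose in THS30. The remaining genes below 0 were 29 that rose in both strains and 29 with no called response. Without THS30 CdCl2-treated replicate 2, the genes that rose in THS30 only were 146 instead of 229, and without THS30 untreated replicate 2 those that fell in both strains were 188 instead of 283. With each library left out in turn, the 40 genes above 0 that fell in both strains became 13 to 88, the 23 above 0 with no called response 14 to 36, the 29 below 0 that rose in both strains 19 to 45, and the 29 below 0 with no called response 11 to 26. THS30 CdCl2-treated replicate 3 gave the most extreme count of each of these 4 small classes, at 88, 36, 45 and 11. A class is a set of calls, and a missing call does not show that a strain did not respond.

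**Figure D1:**
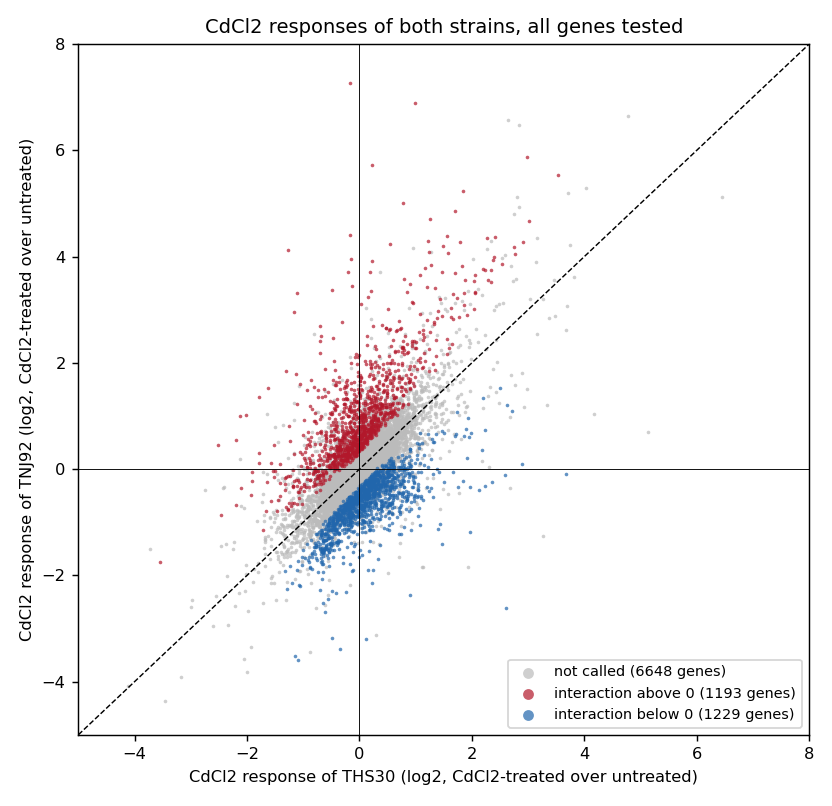
CdCl2 response of TNJ92 (vertical axis) against that of THS30 (horizontal axis), both as log2 of CdCl2-treated over untreated, with 1 point for each gene tested and the dashed line at equal responses. The 1193 called genes above 0 lie above the line and the 1229 called genes below 0 lie under it.

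Calls depended on the level of expression. Levels are given as CPM, counts scaled to the library total after TMM normalisation. When genes were divided into 4 classes of equal size by their mean CPM, 36.2% were called in the highest class and 14.2% in the lowest. The median standard error of the interaction was 0.14 in the highest class and 0.39 in the lowest. A missing call among weakly expressed genes therefore says less than a missing call among strongly expressed genes. The interaction is a difference of ratios, and 49 of the 2422 called genes had the opposite sign when the same difference was taken between group means in CPM, 43 of them above 0 on the log2 scale.

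At a mean of at least 10 CPM, several of the largest positive interactions belonged to genes far lower in untreated TNJ92 than in THS30. The limit can favour such genes, since AN9285, AN3519 and AN3518 met it only through THS30, with both TNJ92 group means under 10 CPM. AN5056 had 18.4, 20.99 and 15.2 CPM in CdCl2-treated and 0.159, 0.0876 and 0.0751 CPM in untreated TNJ92 cultures, against 604, 569 and 679.6 CPM in CdCl2-treated and 793, 688 and 609.8 CPM in untreated THS30 cultures. Untreated TNJ92 held 1 to 2 counts per library, and all 3 treated TNJ92 libraries were above that and below every THS30 library. The fitted interaction, whose size depends on those few counts, was 7.45 ± 0.34 (adjusted p = 7.38e-10), with a called response in TNJ92 and a response of -0.18 in THS30 that was not called (adjusted p = 0.223). AN9285 had 9.14, 10.5 and 10.1 CPM in CdCl2-treated and 0.716, 0.701 and 0.826 CPM in untreated TNJ92 cultures, against 839, 791 and 984 CPM in CdCl2-treated and 758, 767 and 777 CPM in untreated THS30 cultures. The TNJ92 groups did not overlap, and both stayed far below THS30. Its interaction was 3.52 ± 0.21 (adjusted p = 1.3e-08), although the difference in mean CPM between treated and untreated cultures was larger in THS30, which makes it 1 of the 43 genes that change sign on the CPM scale.

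AN3519 and AN3518 lie next to each other in the RefSeq gene order and moved alike. AN3519 had 3.94, 3.97 and 2.40 CPM in CdCl2-treated and 0, 0.175 and 0.375 CPM in untreated TNJ92 cultures, against 16.6, 16.2 and 21.4 CPM in CdCl2-treated and 50.7, 39.3 and 40.5 CPM in untreated THS30 cultures. AN3518 had 2.01, 3.05 and 2.48 CPM in CdCl2-treated and 0.159, 0.35 and 0.225 CPM in untreated TNJ92 cultures, against 17.6, 18.9 and 25.4 CPM in CdCl2-treated and 54.1, 40.96 and 39.1 CPM in untreated THS30 cultures. In both genes the treated TNJ92 libraries were above the untreated ones, while the treated THS30 libraries were below the untreated ones. The interactions were 5.39 ± 0.49 (adjusted p = 1.93e-06) for AN3519 and 4.43 ± 0.43 (adjusted p = 2.33e-06) for AN3518, fitted on 0 to 5 counts per untreated TNJ92 library for AN3519. AN8959 also met the rule for named genes, but its TNJ92 libraries held 0 counts untreated and 1, 3 and 1 counts treated. No fold is given for it, and its call (adjusted p = 0.0342) was lost without TNJ92 CdCl2-treated replicate 2 or without any of the 3 untreated TNJ92 replicates, at adjusted p up to 0.148, and with DESeq2 (adjusted p = 0.0518).

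AN6668 and AN11209 rose in TNJ92 above the THS30 level. AN6668 had 78.01, 80.2 and 64.1 CPM in CdCl2-treated and 2.55, 3.42 and 5.71 CPM in untreated TNJ92 cultures, against 23.5, 21.5 and 15.8 CPM in CdCl2-treated and 10.7, 16.7 and 14.2 CPM in untreated THS30 cultures. Its treated TNJ92 libraries were the highest of all 12, and its interaction was 3.70 ± 0.33 (adjusted p = 6.02e-06). AN11209 had 244, 247 and 196 CPM in CdCl2-treated and 5.73, 7.88 and 10.1 CPM in untreated TNJ92 cultures, against 167, 148 and 104 CPM in CdCl2-treated and 39.1, 37.99 and 51.7 CPM in untreated THS30 cultures. It rose in both strains, by 4.85 in TNJ92 and by 1.70 in THS30, and the treated TNJ92 libraries again were the highest. AN8330 (interaction 3.46 ± 0.35) and AN9320 (3.39 ± 0.59) also rose in both strains, more in TNJ92, from lower levels in untreated TNJ92 than in untreated THS30, but their treated TNJ92 libraries did not all stand above the treated THS30 libraries. AN8330 had 14.3, 12.98 and 9.16 CPM in CdCl2-treated TNJ92 cultures, against 21.4, 21.1 and 15.8 CPM in CdCl2-treated THS30 cultures, and these groups did not overlap. AN9320 had 50.3, 62.7 and 48.7 CPM in CdCl2-treated TNJ92 cultures, against 63.3, 59.4 and 29.1 CPM in CdCl2-treated THS30 cultures, and these groups overlapped. The tables used here pair none of the IDs in the last 3 paragraphs with a gene name.

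The 12 lowest interactions were taken among called genes with a mean of at least 10 CPM. Most of them showed the mirror pattern, a high level in untreated TNJ92 that fell with CdCl2. The limit can favour this pattern. AN7774 (mean of 10.4 CPM) and AN7204 (26.9 CPM) met it only through untreated TNJ92, since their other group means were under 10 CPM. AN7773, AN11476, AN5069 and AN0759 had THS30 group means under 10 CPM, with CdCl2-treated TNJ92 means of 11.1, 14.8, 17.6 and 11.2 CPM. The frequency of the pattern among the 12 genes is thus a description only. AN7204 had 8.25, 6.72 and 10.1 CPM in CdCl2-treated and 111, 83.7 and 66.5 CPM in untreated TNJ92 cultures, against 4.26, 5.13 and 6.85 CPM in CdCl2-treated and 7.11, 6.70 and 6.90 CPM in untreated THS30 cultures. The untreated TNJ92 libraries stood apart from the other 9, and the interaction was -3.03 ± 0.31 (adjusted p = 6.86e-06). The adjacent genes AN7774 and AN7773 shared this pattern. AN7774 had 4.23, 3.21 and 2.85 CPM in CdCl2-treated and 31.4, 32.7 and 30.3 CPM in untreated TNJ92 cultures, against 3.22, 4.65 and 2.43 CPM in CdCl2-treated and 3.32, 2.46 and 3.81 CPM in untreated THS30 cultures. Its interaction was -3.31 ± 0.31 (adjusted p = 1.93e-06), and that of AN7773 was -2.68 ± 0.25 (adjusted p = 1.97e-06). In TNJ92 the responses were -3.19 and -3.17, whereas in THS30 they were 0.12 and -0.49 and were not called. AN11476 (-2.07 ± 0.29), AN7832 (-1.93 ± 0.28), AN5069 (-2.13 ± 0.36), AN4198 (-2.06 ± 0.28) and the gene for the Cys rich protein AN0759 (-1.88 ± 0.32) also had their highest level in untreated TNJ92 and fell there, with called responses between -2.69 and -1.89 in TNJ92.

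AN10815 reached a negative interaction in another way. It had 3.34, 4.35 and 3.30 CPM in CdCl2-treated and 4.69, 5.69 and 4.13 CPM in untreated TNJ92 cultures, against 39.9, 42.4 and 36.8 CPM in CdCl2-treated and 12.4, 8.65 and 6.63 CPM in untreated THS30 cultures. THS30 raised it by 2.12 on the log2 scale, the TNJ92 response of -0.39 was not called (adjusted p = 0.139), and the interaction was -2.52 ± 0.28 (adjusted p = 9.74e-06). AN1941, at -2.30, lost its call without TNJ92 CdCl2-treated replicate 2, THS30 CdCl2-treated replicate 2 or THS30 untreated replicate 2, with adjusted p up to 0.0651.

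**Figure D2:**
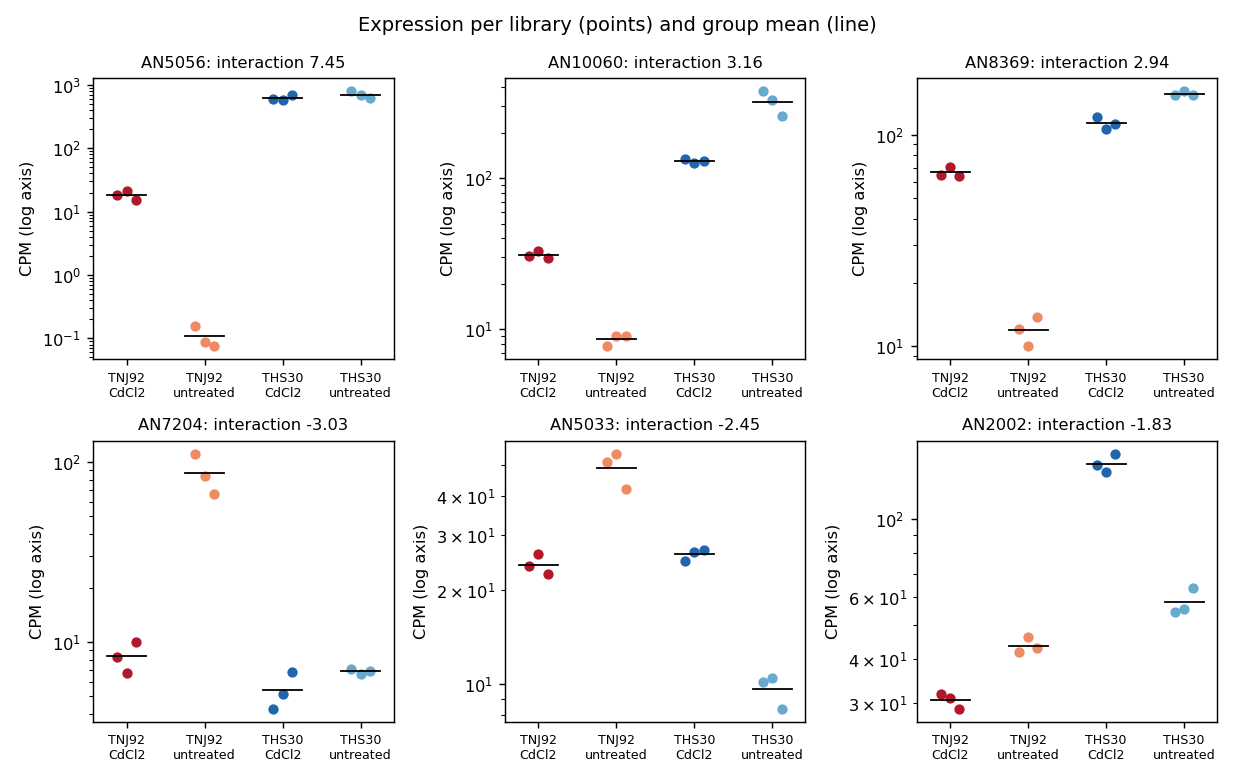
Level of 6 genes in each library (points, CPM on a log axis) and the mean of each group (line), with TNJ92 left of THS30 and CdCl2-treated left of untreated cultures. In the upper row the treated TNJ92 libraries lie above the untreated ones, and in the lower row they lie below.

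Responses in opposite directions were called in 277 genes (3.05% of those tested), of which 254 had a mean of at least 10 CPM. The interaction is the difference of these responses. It was called in all 277, an outcome nearly fixed by the choice of genes. AN10060 had 30.5, 32.98 and 29.4 CPM in CdCl2-treated and 7.72, 9.02 and 9.01 CPM in untreated TNJ92 cultures, against 134, 126 and 129.9 CPM in CdCl2-treated and 377, 331 and 257 CPM in untreated THS30 cultures. It rose in TNJ92 and fell in THS30, yet every treated TNJ92 library stayed below every THS30 library, and the interaction was 3.16 ± 0.17 (adjusted p = 5.11e-09). AN8369 had 64.6, 70.8 and 64.1 CPM in CdCl2-treated and 12.1, 9.99 and 13.7 CPM in untreated TNJ92 cultures, against 122, 106 and 113 CPM in CdCl2-treated and 155, 161 and 154 CPM in untreated THS30 cultures. The responses were 2.47 in TNJ92 and -0.46 in THS30, and the interaction was 2.94 ± 0.14 (adjusted p = 9.48e-10). AN7590 (3.12 ± 0.21), AN9163 (3.39 ± 0.33), AN7992 (2.51 ± 0.25) and the glutathione peroxidase gene AN3255 (2.64 ± 0.18) shared this combination.

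In the other direction, AN5033 had 23.8, 26.1 and 22.4 CPM in CdCl2-treated and 51.1, 54.3 and 41.97 CPM in untreated TNJ92 cultures, against 24.7, 26.5 and 26.9 CPM in CdCl2-treated and 10.2, 10.5 and 8.35 CPM in untreated THS30 cultures. The treated cultures of both strains overlapped, while untreated TNJ92 was the highest group and untreated THS30 the lowest, and the interaction was -2.45 ± 0.18 (adjusted p = 8.08e-08). AN2002 had 31.9, 30.99 and 28.9 CPM in CdCl2-treated and 42.01, 46.2 and 43.02 CPM in untreated TNJ92 cultures, against 143, 136 and 154 CPM in CdCl2-treated and 54.7, 55.8 and 63.7 CPM in untreated THS30 cultures. Here the strains were closer to each other when untreated, and the interaction was -1.83 ± 0.13 (adjusted p = 6.6e-08). Among the 8 genes with the most negative interaction of this kind were *spb4* (AN3176, -1.72 ± 0.23), which encodes an rRNA helicase, *trm61* (AN8799, -1.64 ± 0.21), named like a tRNA methyltransferase subunit of yeast, *rmtA* (AN10526, -1.60 ± 0.14), which encodes an arginine methyltransferase, and AN6200 (-1.61 ± 0.17), the ortholog of the yeast ribosome factor Rrp12p.

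**Figure D3:**
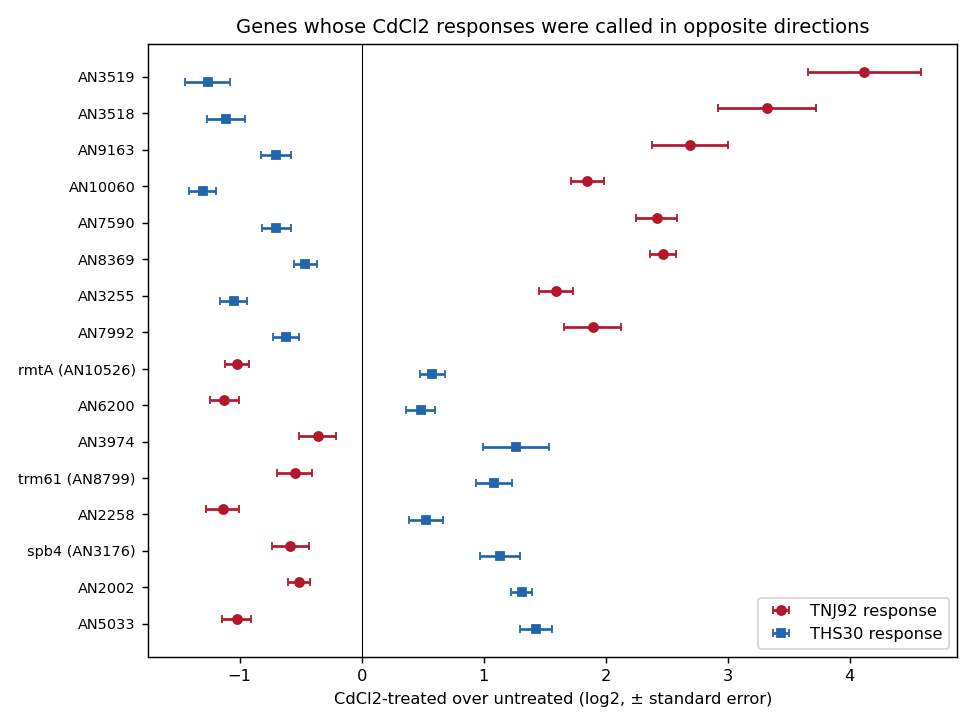
CdCl2 responses (log2, points with standard errors) of 16 genes, with TNJ92 as circles and THS30 as squares. The genes have the most extreme interactions among those called in opposite directions at a mean of at least 10 CPM. In the upper 8 genes TNJ92 lies above 0 and THS30 below it, and in the lower 8 the order is reversed.

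Among the gene lists with at least 20 tested members, ribosome biogenesis had the largest share of calls in 1 direction. Of its 185 tested members, the genes of a Gene Ontology category, 149 (80.5%) had a called interaction below 0 and 1 above 0, beside 13.6% and 13.2% of all genes, and the median interaction was -0.89 beside 0.01. The group makes and assembles the ribosome, a large share of the work of a growing cell. Its median response was -0.54 in TNJ92, where 135 members fell and 10 rose, and 0.28 in THS30, where 46 fell and 85 rose. In 49 members TNJ92 fell while THS30 rose, and in 0 members the reverse was called. The same libraries give the strain difference (TNJ92 over THS30), whose median was -0.05 in CdCl2-treated and 0.83 in untreated cultures. With each of the 12 libraries left out in turn, 136 to 157 members were called below 0. Without THS30 untreated replicate 2 there were 2 members above 0.

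The 165 assembly and rRNA processing factors and the 20 ribosomal proteins differed in their own responses. Among the factors, 130 were called below 0 and 1 above, with a median response of -0.48 in TNJ92 and 0.37 in THS30. Among the ribosomal proteins, 19 of 20 were called below 0, with a median response of -1.43 in TNJ92 and -0.59 in THS30, so that both strains lowered them and TNJ92 lowered them more. Summed over the ribosomal proteins, the libraries held 11104, 10164 and 12173 CPM in CdCl2-treated and 31826, 31885 and 28739 CPM in untreated TNJ92, against 9297, 10537 and 13743 CPM in CdCl2-treated and 16618, 16673 and 17397 CPM in untreated THS30. The treated groups overlapped, and untreated TNJ92 was above all others. Replicate 3 of CdCl2-treated THS30 was the highest of its group, and without it the median interaction of the ribosomal proteins was -0.68 instead of -0.89. Over the factors the sums were 23726 ± 1018 CPM in CdCl2-treated and 51221 ± 3958 CPM in untreated TNJ92, against 24175 ± 2189 CPM in CdCl2-treated and 28783 ± 992 CPM in untreated THS30 (SD, n = 3 each). In THS30 this sum was lower in treated cultures while the median response of its members was above 0, the sum giving more weight to abundant members.

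Single factors moved in the same manner. *nop7* (AN3827), which encodes a nucleolar protein, had 86.8, 103 and 99.8 CPM in CdCl2-treated and 190.0, 174 and 143 CPM in untreated TNJ92 cultures, against 139, 145 and 115 CPM in CdCl2-treated and 86.8, 70.97 and 83.4 CPM in untreated THS30 cultures. In TNJ92 the treated libraries were the lower ones and in THS30 the higher ones, and the interaction was -1.54 ± 0.17 (adjusted p = 6.86e-06). *rpf2* (AN10200), a ribosome assembly factor of the Rpf2-Rrs1 complex, had an interaction of -1.53 ± 0.15. *utp10* (AN5455), whose orthologs bind the U3 small nucleolar RNA, had -1.42 ± 0.15. AN6902, the ortholog of the yeast factor Mrt4p, had -1.44 ± 0.19. All 4 fell in TNJ92 and rose in THS30. The member above 0 was *dspC* (AN4419), whose orthologs bind preribosomes, at 0.73 ± 0.17, which rose in both strains.

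**Figure D4:**
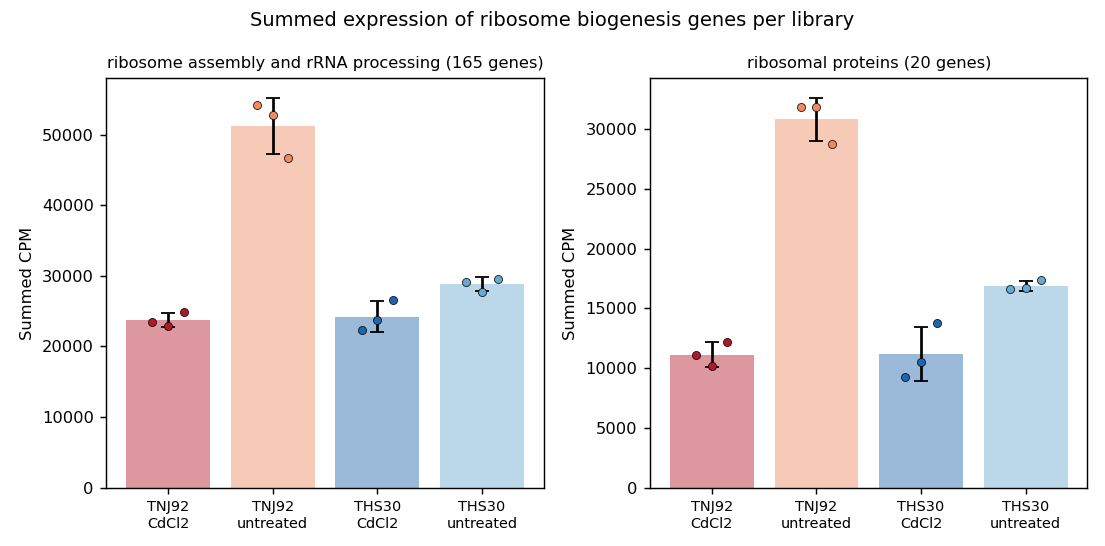
Summed CPM of 165 ribosome assembly and rRNA processing genes (left) and of 20 ribosomal protein genes (right) per library (points), with group means (bars) and SD (error bars, n = 3), from left to right CdCl2-treated TNJ92, untreated TNJ92, CdCl2-treated THS30 and untreated THS30. Untreated TNJ92 stands above the other groups in both panels.

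In the phosphorelay and SakA cascade lists the calls lay above 0. The cell wall integrity pathway list had 2 of 8 genes below 0 and 0 above. Of 5 listed stress and nutrient transcription factors, 1 was above 0 and 1 below. Of all genes tested, 13.2% were called above 0 and 13.6% below, for comparison with each list from here on. Of the 20 tested phosphorelay genes, 11 (55.0%) were called above 0 and 0 below, with a median interaction of 0.46 and a median response of 0.29 in TNJ92 and -0.10 in THS30. The fitted values of 19 of the 20 were above 0. Their median strain difference was -0.51 in CdCl2-treated and -0.79 in untreated cultures. The histidine kinase gene *hk-8-1* (AN2581) had 47.99, 41.5 and 35.7 CPM in CdCl2-treated and 22.3, 21.5 and 22.8 CPM in untreated TNJ92 cultures, against 66.3, 63.6 and 80.2 CPM in CdCl2-treated and 121, 133 and 114 CPM in untreated THS30 cultures. TNJ92 raised it and THS30 lowered it, the strains still did not overlap after treatment, and the interaction was 1.72 ± 0.16 (adjusted p = 1.97e-06). *hk-8-2* (AN4113) showed the same combination at 1.51 ± 0.15. *hk-8-3* (AN6820, 0.67 ± 0.12) and *hk-8-7* (AN9048, 0.95 ± 0.18) rose in both strains, with the larger rise in TNJ92. The response regulator gene *srrA* (AN3688, 0.59 ± 0.12) and the HOG pathway sensor gene *tcsB* (AN1800, 0.61 ± 0.14) fell in THS30, and their responses in TNJ92 were not called.

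*sakA* (AN1017), the gene of the MAP kinase that works with AtfA, had 224, 227 and 202 CPM in CdCl2-treated and 189, 191 and 166 CPM in untreated TNJ92 cultures, against 234, 232 and 272 CPM in CdCl2-treated and 500.5, 434 and 386 CPM in untreated THS30 cultures. Untreated THS30 stood above the other groups, and after treatment the strains were close without overlapping. Its interaction was 1.10 ± 0.15 (adjusted p = 4.72e-05), from responses of 0.26 in TNJ92 and -0.84 in THS30. Among the 7 tested genes of the SakA cascade list, *sakA* and *tcsB* were called above 0 and none below.

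Of 5 listed cytosolic and mitochondrial chaperone genes, 3 were called above 0 and 0 below, beside 13.2% and 13.6% of all genes. Among them was *hsp60* (AN6089), at 0.65 ± 0.20 (adjusted p = 0.0229). Its call was lost without TNJ92 CdCl2-treated replicate 3, TNJ92 untreated replicate 1, THS30 CdCl2-treated replicate 1, or THS30 untreated replicate 2 or 3. *hsp90* (AN8269) had 6011, 7170 and 6797 CPM in CdCl2-treated and 1859, 2243 and 2471 CPM in untreated TNJ92 cultures, against 6411, 6298 and 5542 CPM in CdCl2-treated and 4076, 4606 and 5034 CPM in untreated THS30 cultures. Untreated TNJ92 was the lowest group and the treated groups overlapped, with an interaction of 1.19 ± 0.18 (adjusted p = 0.000135). *hsp70* (AN5129) had an interaction of 0.93 ± 0.18 and responses of 1.02 in TNJ92 and 0.09 in THS30, the second of which was not called (adjusted p = 0.601). Of the 5 listed genes for folding in the endoplasmic reticulum 0 were called, or 1 below 0 without TNJ92 CdCl2-treated replicate 2, and their median response was 0.87 in TNJ92 and 0.68 in THS30.

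Among 35 tested genes for antioxidative enzymes, 7 were called above 0 and 2 below, with a median interaction of 0.09. The 2 below 0 became 1 without TNJ92 CdCl2-treated replicate 3, TNJ92 untreated replicate 2, THS30 CdCl2-treated replicate 1 or 2, or THS30 untreated replicate 3. The 7 calls above 0 became 3 without replicate 2 of CdCl2-treated TNJ92 or of CdCl2-treated THS30, and 4 without TNJ92 untreated replicate 1 or THS30 untreated replicate 3. The catalase-peroxidase gene *cpeA* (AN7388) had 3.86, 5.04 and 4.58 CPM in CdCl2-treated and 3.50, 5.43 and 5.93 CPM in untreated TNJ92 cultures, against 15.03, 15.8 and 15.6 CPM in CdCl2-treated and 42.6, 44.6 and 46.03 CPM in untreated THS30 cultures. THS30 lowered it, with a response of -1.52 on the log2 scale, TNJ92 had no called response, and the interaction was 1.38 ± 0.22 (adjusted p = 0.000286). *gpxA* (AN2846), a glutathione peroxidase gene, had an interaction of 0.57 ± 0.13 and rose in TNJ92 only. *trxB* (AN8218), a thioredoxin reductase gene, was called below 0 at -0.79 ± 0.20 and fell in TNJ92, where its level stayed above that of every THS30 library. The hyphal catalase gene *catB* (AN9339) was not called, at -0.35 ± 0.16 (adjusted p = 0.118). *catA* (AN8637), the catalase of conidia, held 0 to 8 counts in the TNJ92 libraries and 144 to 390 in the THS30 libraries, and its call (adjusted p = 0.037) was lost without TNJ92 CdCl2-treated replicate 2 or 3, TNJ92 untreated replicate 1 or 2, THS30 CdCl2-treated replicate 2, or THS30 untreated replicate 2 or 3, with adjusted p up to 0.122 without TNJ92 CdCl2-treated replicate 3.

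In sulfur metabolism the calls went both ways. Of 53 tested genes of Cys, Met and glutathione metabolism, 6 (11.3%) were called above 0 and 12 (22.6%) below. Sulfate assimilation, which reduces sulfate to sulfide, had 5 of 11 genes below 0 and 0 above, or 1 above without THS30 untreated replicate 1. The sulfite reductase gene *sF* (AN1752) had 46.6, 48.9 and 52.9 CPM in CdCl2-treated and 149, 151 and 140.2 CPM in untreated TNJ92 cultures, against 51.3, 51.8 and 93.8 CPM in CdCl2-treated and 70.7, 74.4 and 68.7 CPM in untreated THS30 cultures. Untreated TNJ92 was the highest group, THS30 CdCl2-treated replicate 3 stood above the other treated libraries, and the interaction was -1.45 ± 0.26 (adjusted p = 0.00143). AN7600, also annotated for sulfate assimilation, had -1.25 ± 0.16. The PAPS reductase gene *sA* (AN4770) fell in TNJ92 and rose in THS30, at -0.93 ± 0.17, and the ATP sulfurylase gene *sC* (AN4769) fell in both strains, at -0.79 ± 0.19.

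Among the called genes of Cys, Met and glutathione metabolism, the 4 furthest above 0 belonged to Cys and Met synthesis or glutathione breakdown. The highest fitted value of the whole list, 1.77, was that of a sulfate assimilation gene and was not called. *metE* (AN2229), annotated as an O-acetyltransferase gene of amino acid metabolism, had 160.1, 163 and 142 CPM in CdCl2-treated and 81.9, 75.5 and 69.97 CPM in untreated TNJ92 cultures, against 87.4, 82.2 and 64.7 CPM in CdCl2-treated and 73.9, 66.4 and 79.9 CPM in untreated THS30 cultures. Treated TNJ92 stood above all other libraries, and the interaction was 0.94 ± 0.16 (adjusted p = 0.000326). *mecB* (AN1446), the gene of cystathionine gamma-lyase, had an interaction of 0.73 ± 0.14 and rose in both strains. The cystathionine gamma-synthase gene AN3456 (0.71 ± 0.17) rose in TNJ92 only, and AN2988 (0.63 ± 0.16), annotated for glutathione breakdown, rose in both strains.

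Genes of iron-sulfur proteins were called below 0 in 12 of 44 cases (27.3%) and above 0 in 3 (6.82%). The aconitase gene AN3894 had an interaction of -1.47 ± 0.24, the homoaconitase gene *lysF* (AN6521) -0.997 ± 0.17 and *rip1* (AN2306), a ubiquinol-cytochrome-c reductase subunit, -0.66 ± 0.14. All 3 fell in TNJ92 (responses of -1.77, -1.87 and -1.14), and the last pair also fell in THS30. *aifA* (AN9103), a gene for an AIF-like mitochondrial oxidoreductase, lay above 0 at 0.87 ± 0.13 and fell in both strains, more in THS30. The 3 calls above 0 became 1 without TNJ92 CdCl2-treated replicate 2 or 3, TNJ92 untreated replicate 1, THS30 CdCl2-treated replicate 2, or THS30 untreated replicate 2 or 3. Among 12 folate cycle genes, 5 were below 0 and 1 above, and 3 were below 0 without TNJ92 CdCl2-treated replicate 3, TNJ92 untreated replicate 2, THS30 CdCl2-treated replicate 2, or THS30 untreated replicate 2 or 3. The call above 0 was lost without TNJ92 CdCl2-treated replicate 2, TNJ92 untreated replicate 1, or THS30 untreated replicate 2 or 3.

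Of 21 P-type ATPase genes, 5 (23.8%) were called above 0 and 0 below. Leaving out TNJ92 CdCl2-treated replicate 3 gave 2 below 0. *enaA* (AN6642), annotated as a potassium-transporting ATPase gene, had 79.9, 57.4 and 59.7 CPM in CdCl2-treated and 19.6, 42.2 and 33.6 CPM in untreated TNJ92 cultures, against 95.9, 120.1 and 120.4 CPM in CdCl2-treated and 195, 175 and 215 CPM in untreated THS30 cultures. The TNJ92 groups and the THS30 groups moved toward each other without overlapping, and the interaction was 1.85 ± 0.33 (adjusted p = 0.00232). *pmcC* (AN8399, 1.12 ± 0.14), annotated alike, also rose in TNJ92 and fell in THS30. The sodium pump gene *enaC* (AN10982, 0.90 ± 0.16) and AN5743 (0.70 ± 0.16), annotated as potassium-transporting, rose in TNJ92 only. The copper and cadmium efflux pump gene *crpA*, read here at AN3117, had 179, 190.0 and 253 CPM in CdCl2-treated and 174, 169.8 and 159 CPM in untreated TNJ92 cultures, against 619.7, 551 and 566 CPM in CdCl2-treated and 344, 409.6 and 387 CPM in untreated THS30 cultures. It rose in both strains, TNJ92 stayed below THS30, and its interaction was -0.30 ± 0.16 (adjusted p = 0.189), which was not called. The supplementary tables of the study pair *crpA* with AN3117 and its text names another ID, so the values are those of AN3117 alone.

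Of 7 tested genes of iron homeostasis, 1 was called above 0 and 1 below, with a median interaction of 0.09. *sreA* (AN0176), which encodes a repressor of iron uptake, was called below 0 at -0.55 ± 0.11, with responses of -0.45 in TNJ92 and 0.10 in THS30. *hapE* (AN6492) was called above 0 at 0.37 ± 0.13 (adjusted p = 0.0424) and rose in both strains. Its call was lost with library totals and without single libraries such as TNJ92 CdCl2-treated replicate 2 (adjusted p = 0.104). The gene *pyroA* (AN7725), present in both strains and used as the marker of the deletion, had 635, 786 and 712 CPM in CdCl2-treated and 653, 608 and 520.4 CPM in untreated TNJ92 cultures, against 128, 129.8 and 126 CPM in CdCl2-treated and 147, 165 and 228 CPM in untreated THS30 cultures. Its interaction was 0.76 ± 0.19 (adjusted p = 0.00835), with responses of 0.26 in TNJ92 (adjusted p = 0.111, not called) and -0.50 in THS30.

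Of 20 glycolysis genes, 6 (30.0%) were called above 0 and 1 (5.00%) below, with a median response of -0.03 in TNJ92 and -0.36 in THS30. Without THS30 CdCl2-treated replicate 3, 12 were above 0. *pgmA* (AN3059), the gene of phosphoglycerate mutase, had 393, 418 and 459.6 CPM in CdCl2-treated and 513, 512 and 444 CPM in untreated TNJ92 cultures, against 246, 254 and 320.1 CPM in CdCl2-treated and 595, 592 and 568 CPM in untreated THS30 cultures. Treated THS30 was the lowest group, the TNJ92 response of -0.21 was not called, and the interaction was 0.89 ± 0.15 (adjusted p = 0.000351). The pyruvate decarboxylase gene *pdcB* (AN8396, 0.96 ± 0.20) and the triose-phosphate isomerase gene *tpiB* (AN5908, 0.72 ± 0.13) rose in TNJ92, the second also falling in THS30, and the hexokinase gene *hxkA* (AN7459, 0.52 ± 0.11) fell in THS30 only. The pyruvate kinase gene *pkiA* (AN5210) lay below 0 at -0.47 ± 0.13. Of 9 tested glyoxylate pathway genes, 1 was called above 0 and 1 below, with a median interaction of -0.01, and 7 fell in each strain. The isocitrate lyase gene *acuD* (AN5634), which opens the glyoxylate bypass, had an interaction of 1.81 ± 0.30 and rose in TNJ92 only. *citA* (AN8275) was called below 0 at -0.40 ± 0.14 (adjusted p = 0.048) and fell in both strains. Its call was lost with RLE factors (adjusted p = 0.0645) and without single libraries.

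Of 16 genes of the squalene-ergosterol pathway, which makes the main fungal membrane sterol, 3 were above 0 and 4 below. The 4 became 1 without TNJ92 untreated replicate 1 and 2 without TNJ92 CdCl2-treated replicate 2, THS30 CdCl2-treated replicate 3 or THS30 untreated replicate 3. The sterol reductase gene *erg4* (AN10648, -0.78 ± 0.17) lay below 0 and its relative *erg4A* (AN2684, 0.61 ± 0.15) above 0. The responses were -1.49 in TNJ92 and -0.71 in THS30 for *erg4* and 0.81 in TNJ92 and 0.20 in THS30 for *erg4A*.

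Of 47 genes for wall hydrolysis, 9 (19.1%) were called above 0 and 2 (4.26%) below, with a median interaction of 0.15. Of 35 genes for wall biosynthesis, 2 (5.71%) were called above 0 and 6 (17.1%) below, with a median of 0.17. The medians were alike, and the lists were not tested against each other. The count of 2 for hydrolysis became 4 without replicate 1 of either TNJ92 group, and the count of 2 for biosynthesis became 5 without TNJ92 CdCl2-treated replicate 1 or TNJ92 untreated replicate 3 and 6 without THS30 CdCl2-treated replicate 3 or THS30 untreated replicate 1. The glucan transglycosidase genes *crhD* (AN3053, -0.80 ± 0.12), *gelB* (AN0558, -0.64 ± 0.14) and *btgA* (AN10150, -0.50 ± 0.11) fell in TNJ92, and *gelB* also fell in THS30. *crhC* (AN0933, 0.78 ± 0.17), named like *crhD*, rose in TNJ92 only. *agsA* (AN5885), of the alpha-1,3-glucan synthases, fell in TNJ92 and rose in THS30, at -2.06 ± 0.46. The putative chitin deacetylase gene AN1852 had an interaction of 1.51 ± 0.40 from responses of -0.04 in TNJ92 and -1.55 in THS30, and the mannanase gene *dfgB* (AN8421, 1.03 ± 0.20) rose in both strains.

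Of 26 autophagy genes, 7 (26.9%) were above 0 and 0 below, with a median response of 0.43 in TNJ92 and 0.14 in THS30. *atg26* (AN4601), a sterol glucosyltransferase gene, had 80.7, 79.5 and 66.8 CPM in CdCl2-treated and 40.3, 35.6 and 40.99 CPM in untreated TNJ92 cultures, against 79.9, 73.9 and 69.7 CPM in CdCl2-treated and 76.4, 72.3 and 76.4 CPM in untreated THS30 cultures. Untreated TNJ92 was the lowest group and the other 3 overlapped, with an interaction of 0.97 ± 0.13 (adjusted p = 7.08e-05). *atgH* (AN5131, 0.51 ± 0.13), the gene of the Atg8 ubiquitin-like protein, rose in both strains. Of 82 DNA repair genes, 3 (3.66%) were above 0 and 14 (17.1%) below. The 14 became 9 without replicate 2 or 3 of CdCl2-treated TNJ92, 8 without THS30 CdCl2-treated replicate 2 and 6 without THS30 untreated replicate 3. The clamp loader gene AN2969 (-0.79 ± 0.14) and the DNA N-glycosylase gene AN6682 (-0.84 ± 0.19) fell in TNJ92, AN2969 also rising in THS30, and *cshA* (AN7103, 0.53 ± 0.11), related to the Cockayne's syndrome repair protein, rose in both strains.

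Of 5 genes of sexual development and the velvet complex, 2 were called above 0 and 0 below. *nsdD* (AN3152, 0.42 ± 0.13), which encodes a GATA-type activator of sexual development, rose in both strains, more in TNJ92. *velB* (AN0363, 0.36 ± 0.13), which encodes a velvet protein, had no called response in either strain. Both calls were lost without TNJ92 CdCl2-treated replicate 2, TNJ92 untreated replicate 2 or THS30 untreated replicate 3. The call of *velB* was also lost with library totals, without TNJ92 CdCl2-treated replicate 3 or TNJ92 untreated replicate 1, and without THS30 CdCl2-treated replicate 1 or 2 or THS30 untreated replicate 1. Of 14 conidiation genes 1 was called, *flbD* (AN0279), which encodes a Myb-type activator of conidiation, and 2 were called without TNJ92 CdCl2-treated replicate 3, TNJ92 untreated replicate 1 or THS30 untreated replicate 1. *flbD* had 83.2, 108 and 108 CPM in CdCl2-treated and 42.5, 45.5 and 48.8 CPM in untreated TNJ92 cultures, against 31.98, 30.2 and 37.9 CPM in CdCl2-treated and 38.7, 31.97 and 43.3 CPM in untreated THS30 cultures, and its interaction was 1.32 ± 0.18 (adjusted p = 7.05e-05). The treated TNJ92 libraries stood above all others, and THS30 had no called response. Among 8 markers of conidiophores and conidia, 7 were tested and *catA* alone was called. The markers summed to 27.2 to 38.1 CPM in CdCl2-treated and 27.6 to 83.3 CPM in untreated TNJ92, against 57.004 to 78.3 CPM in CdCl2-treated and 71.0 to 92.4 CPM in untreated THS30, and none of them was at 0 in every library of a group. Within these sums, *rodA* alone spanned 1.75 to 57.1 CPM in untreated TNJ92. *catA* held 24.4 to 33.1 CPM in untreated THS30, against 0 to 0.30 CPM in untreated TNJ92. The sums thus lean on single markers, and the part of the markers in the interactions was not tested.

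Of 277 tested genes in secondary metabolite clusters, 39 (14.1%) were called above 0 and 6 (2.17%) below. Among all genes tested these shares were 13.2% and 13.6%, so the share above 0 was close to that of all genes. The median interaction was 0.25. Without TNJ92 untreated replicate 3, 10 were below 0. AN9250 of the austinol clusters (3.08 ± 0.44) and AN0656 (2.89 ± 0.48) had the largest values among the called genes. The peptide synthetase gene *inpB* (AN3496) had 2.90, 5.19 and 3.75 CPM in CdCl2-treated and 0.159, 0.263 and 0.526 CPM in untreated TNJ92 cultures, against 2.69, 2.76 and 1.26 CPM in CdCl2-treated and 0.83, 1.53 and 1.45 CPM in untreated THS30 cultures. Treated TNJ92 was the highest group, at a low level throughout, and the interaction was 2.79 ± 0.60 (adjusted p = 0.00256). In the cluster of AN7884, 4 of 9 tested genes were above 0, among them AN7880 (2.06 ± 0.46) and AN7873 (0.74 ± 0.17), while AN7884 itself, a putative peptide synthetase gene, was not called (0.40 ± 0.21). AN3286 rose in both strains, more in THS30, at -1.24 ± 0.19. *sidI* (AN0609), which encodes an enoyl-CoA hydratase of siderophore synthesis, was the most negative of the 6 at -1.40 ± 0.47 (adjusted p = 0.0457), and its call was lost when any library but TNJ92 untreated replicate 3 and THS30 untreated replicate 2 was left out, with adjusted p up to 0.107 without THS30 CdCl2-treated replicate 1. It was also lost with library totals (adjusted p = 0.052) and with no filter on low counts (adjusted p = 0.062).

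Called genes of the same direction also lay side by side. Along the RefSeq gene order, in which 8548 of the tested genes have a place, 69 runs of at least 3 adjacent genes were called in the same direction, 34 above and 35 below 0. The longest held 7 genes, AN7760, AN7761, AN7762, AN11023, AN11009, AN7764 and AN7765, with interactions from 0.60 to 1.78. Runs of 5 were AN11185 to AN9147 and AN8643 to AN8639 above 0 and AN6554 to AN6558 below 0. In the run that ends with AN8639, that gene had 48.8, 51.7 and 43.5 CPM in CdCl2-treated and 9.23, 10.8 and 13.4 CPM in untreated TNJ92 cultures, against 179.5, 177 and 199.8 CPM in CdCl2-treated and 171, 216 and 199 CPM in untreated THS30 cultures. It rose in TNJ92 with no called response in THS30, at 2.18 ± 0.17 (adjusted p = 2.29e-07). No share of such runs was computed for genes in another order, so the number is a description.

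**Figure D5:**
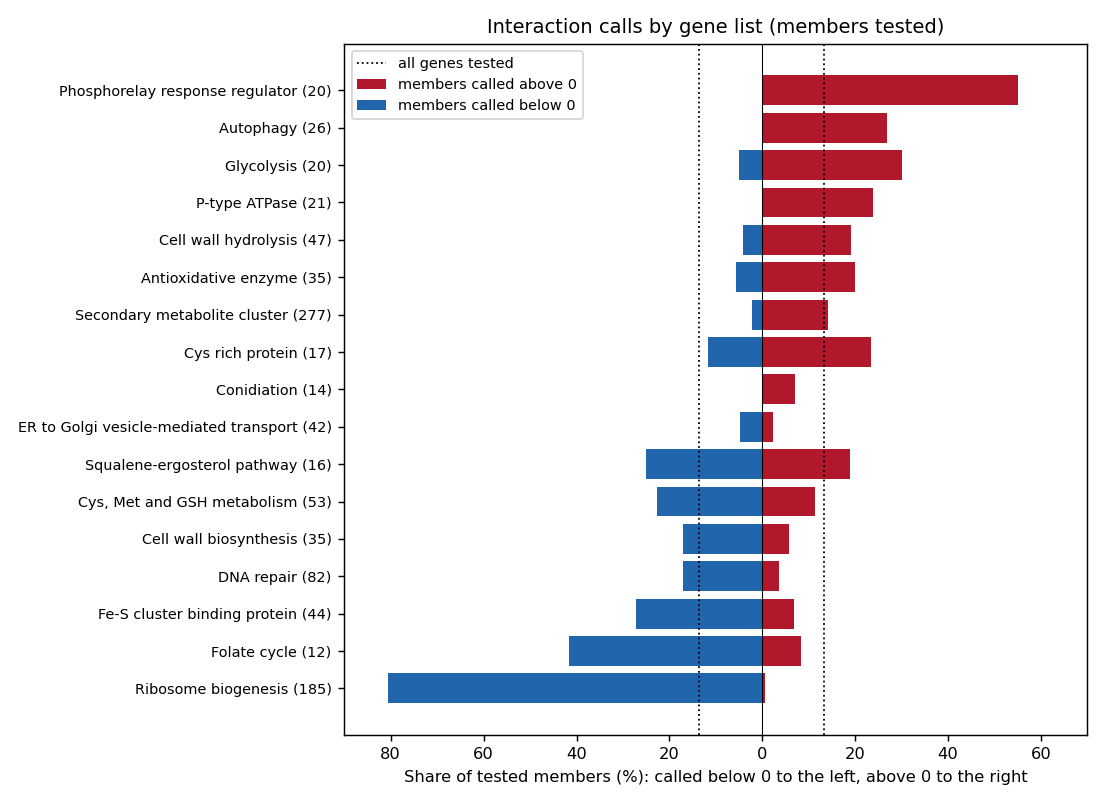
Share of tested members of gene lists (number tested in brackets) whose interaction was called above 0 (right) or below 0 (left). Dotted lines mark the 13.2% and 13.6% of all genes. Lists with fewer than 12 tested members and parts of lists are not shown. Ribosome biogenesis reaches 80.5% below 0 and the phosphorelay genes 55.0% above 0.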

How the data were processed

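RNA from 12 submerged cultures was sequenced as single reads. Per the labels and the study's methods, the authors checked reads with FastQC, aligned them with HISAT2 2.1.0 to the A. nidulans FGSC A4 genome and deposited raw counts per gene, transcript length and RPKM. The submitters' notes also list DESeq2 1.20.0. No source used here names the counting program or its strand setting, so overlapping and antisense genes cannot be told apart.

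Starting from the deposited counts (8721119 to 13641031 per library), genes were filtered with filterByExpr (minimum count of 10), normalised by TMM and fitted with 1 mean per group by the robust quasi-likelihood test of edgeR 4.0.16 in R 4.3.3, with Benjamini-Hochberg adjustment over the 9070 genes tested. Standard errors of log2 values, given after ±, are approximate. Each is the size of the log2 value divided by the square root of the F statistic of this test. They are least certain where a group holds few counts, as for AN5056 and AN3519, and can be too small there. All log2 values are CdCl2-treated over untreated or TNJ92 over THS30, and all adjusted p-values come from this test. The model was also run on simulated counts drawn with the spread fitted to these data, so that run cannot show how reliable the calls are. RPKM and transcript lengths were not used for any value given.

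The replicates are labelled as biological replicates. The p-values rest on the spread between the 3 cultures of a group, pooled over the 4 groups and with information shared across genes. Alternatives were RLE factors, library totals, no filter, DESeq2 1.42.0, a replicate block, each library left out, a log2 size of at least 1, an adjusted p under 0.01 and the CPM scale. Replicate numbers were not taken as pairs. The promoter comparison planned as an addition was not run, and no sequence was read.

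The members and gene lists were chosen with earlier results of these data known, many lists coming from the study's own tables. From the lists drawn up by hand, 52 of 75 members had a matching symbol and were used. Genes named are the 12 with the highest and the 12 with the lowest interaction at a mean of at least 10 CPM, the 8 furthest in each direction with opposite responses, up to 4 members per list and direction at a mean of at least 1 CPM, *atfA*, the hand lists and genes named by the study. AN8639 and the runs of neighbours were chosen after their values were seen. Gene names absent from the study's tables, and the order of genes, come from RefSeq (assembly ASM1142v1).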

Additional observations from a re-analysis of the deposited data

Results flagged for a closer look

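The responses of the strains went in opposite directions, each called, in 16 genes singled out by the size of their interaction. These genes were chosen for that size among genes with opposite called responses and a mean of at least 10 CPM. Their values are thus a description and no test of the pattern. Above 0, with a rise in TNJ92 and a fall in THS30, the interactions (log2) were 5.39 for AN3519, 4.43 for AN3518, 3.39 for AN9163, 3.16 for AN10060, 3.12 for AN7590, 2.94 for AN8369, 2.64 for AN3255 and 2.51 for AN7992. Below 0, with a fall in TNJ92 and a rise in THS30, they were -2.45 for AN5033, -1.83 for AN2002, -1.72 for *spb4* (AN3176), -1.67 for AN2258, -1.64 for *trm61* (AN8799), -1.62 for AN3974, -1.61 for AN6200 and -1.60 for *rmtA* (AN10526).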

How the results depend on the processing

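The number of called interactions was 2408 with RLE factors, 2276 with library totals, 2321 of 10749 genes without a filter, 2439 with DESeq2, and 1898 (without THS30 untreated replicate 2) to 2585 (without TNJ92 untreated replicate 3) with each library left out, and every gene called both there and in the reported fit kept its direction. At an adjusted p under 0.01 it was 1371. With a log2 size of at least 1 it was 711, 456 above and 255 below 0, beside 1433 responses in TNJ92, 712 in THS30, and strain differences in 1550 CdCl2-treated and 1758 untreated genes. At that size the classes above 0 held 205 genes (up in TNJ92 only), 132 (up in both), 49 (down in THS30 only), 65 (up in TNJ92, down in THS30), 3 (down in both) and 2 (neither), and those below 0 held 81 (down in TNJ92 only), 22 (down in both), 42 (up in THS30 only), 99 (down in TNJ92, up in THS30), 8 (up in both) and 3 (neither). Library totals gave 12 (above 0, neither), 23 (above 0, down in both), 13 (below 0, neither) and 181 (below 0, down in both), and DESeq2 37 (above 0, neither). On the CPM scale 49 called genes had the opposite sign.

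Leaving out each library in turn gave, above 0, 14 to 36 genes with neither response called and 13 to 88 down in both strains, and below 0, 19 to 45 up in both, 146 to 237 up in THS30 only, 11 to 26 with neither and 188 to 305 down in both. Among lists it gave 3 to 7 antioxidative genes above and 1 to 3 below 0, 2 to 6 wall biosynthesis genes above, 2 to 4 wall hydrolysis genes below, 6 to 18 DNA repair genes below, 1 to 2 genes of transport from the endoplasmic reticulum to the Golgi above and 1 to 2 below, 1 to 3 iron-sulfur genes above, 4 to 12 glycolysis genes above, 0 to 2 P-type ATPase genes below, 1 to 2 ribosome biogenesis genes above and 4 to 10 secondary metabolite genes below. Other settings gave 4 (library totals) and 5 (DESeq2) wall biosynthesis genes above 0, 4 wall hydrolysis genes below 0 (DESeq2), 10 glycolysis genes above 0 (library totals and DESeq2), and for the same transport 2 above 0 (RLE) and 1 below 0 (library totals and no filter). The cause of these shifts was not tested.

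Same-numbered libraries did not all deviate together (correlations of -0.13 to 0.32, with 12 of 18 pairs over 0.1, and 8 of 12 libraries closest to their own number). With a replicate block 2851 interactions were called, with 4 antioxidative genes below 0, 6 wall biosynthesis genes above, 5 DNA repair genes above and 2 genes of transport to the Golgi above. Of 147 called single genes examined, 39 lost the call in at least 1 alternative and 0 reversed. Weakly expressed genes limit the depth of the comparison, since the lowest class by level had a median standard error of 0.39.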
